A study of Mus musculus with 4 samples.

Results

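Macrophages take up dead cells, microbes and matrix fragments, present signals to neighbouring tissue, and are required for the mouse digit tip to regrow after amputation. They arise from blood monocytes or from cells seeded in the tissue before birth, and they depend on signals through the CSF1 receptor to survive. The genes described here are 10 genes that mark these cells, chosen by gene name: Csf1r, Adgre1, Cd68, Lyz2, Cd14, Fcgr1, Mrc1, Cd163, C1qa and C1qb. All 10 were found once each among the 45706 genes of the deposited table.

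Gene counts came from whole regenerating digit tips of mice, taken 14 days after amputation. Each of 4 genotypes had 1 library. The genotypes are Sp6 conditional knockout (cKO), Sp8 cKO, Sp6+Sp8 cKO and wildtype, and the study asks about conserved epidermal factors in digit regeneration, of which Sp6 and Sp8 are a related pair of zinc-finger transcription factors. Deletion was induced with tamoxifen at 75 mg/kg a day for 5 days, with 5 days of rest before amputation. Neither the Cre driver, the strain, the number of animals or digits per library, nor any tamoxifen in wildtype mice is named in the labels, which describe amputations of both the distal and the middle phalanx without saying which applies here. All 3 cKO libraries are labelled batch 1, whereas wildtype is labelled batch 3. Deletion and batch therefore cannot be told apart wherever wildtype is the comparator, and only the cKO libraries can be set against each other inside 1 batch. With 1 library per genotype nothing was tested against variation between animals, and each comparison describes 2 libraries.

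Library totals ran between 12588511 and 21834883 counts. Sp6 stood at 29.2 CPM (counts per 1000000, after scaling) in Sp6 cKO, 95.6 in Sp8 cKO, 57.8 in Sp6+Sp8 cKO and 97.7 in wildtype. Sp8 stood at 66.1 CPM in Sp6 cKO, 16.8 in Sp8 cKO, 13.4 in Sp6+Sp8 cKO and 63.9 in wildtype. Sp6 was thus only partly reduced in the Sp6+Sp8 cKO library. Xist, expressed from the inactive X chromosome, was at 1963 CPM in Sp6 cKO, 27.9 in Sp8 cKO, 3528 in Sp6+Sp8 cKO and 1526 in wildtype. Y-linked Kdm5d was at 35.7 CPM in Sp6 cKO, 65.3 in Sp8 cKO, 32.0 in Sp6+Sp8 cKO and 43.2 in wildtype. The mix of sexes therefore differed between libraries, and its part in the results below was not tested.

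Upstream sequence is shown for 5 of the genes: Fcgr1, which differed most between libraries, and C1qb, Cd68, Lyz2 and Mrc1, the genes whose counting intervals lay above wildtype in each cKO library. RefSeq promoters on GRCm38.p6 matched 6 of the 10 genes, and the 250 bases before the RefSeq start of transcription are given 5′ to 3′ on the gene's strand. That start can differ from the gene positions given below, which come from GENCODE M21. The windows of Lyz2 and Mrc1 thus overlap the positions given for those genes. Capitals mark GGAAGT, a core that ETS factors such as the macrophage regulator PU.1 recognise, or GGGCGG, the GC box that Sp proteins recognise. Both were searched on both strands, so the capitals may read ACTTCC or CCGCCC.
Fcgr1, chr3:96293970-96294219, minus strand: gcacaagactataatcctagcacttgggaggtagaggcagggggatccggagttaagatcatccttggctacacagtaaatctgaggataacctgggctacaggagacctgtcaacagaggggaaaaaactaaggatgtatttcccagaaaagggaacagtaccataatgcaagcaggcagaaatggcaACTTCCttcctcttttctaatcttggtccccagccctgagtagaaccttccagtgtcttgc
C1qb, chr4:136886201-136886450, minus strand: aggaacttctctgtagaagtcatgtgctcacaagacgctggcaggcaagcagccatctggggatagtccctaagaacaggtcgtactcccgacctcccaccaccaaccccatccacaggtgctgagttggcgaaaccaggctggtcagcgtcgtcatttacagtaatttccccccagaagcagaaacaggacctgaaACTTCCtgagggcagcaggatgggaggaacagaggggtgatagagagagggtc
Lyz2, chr10:117282273-117282522, minus strand: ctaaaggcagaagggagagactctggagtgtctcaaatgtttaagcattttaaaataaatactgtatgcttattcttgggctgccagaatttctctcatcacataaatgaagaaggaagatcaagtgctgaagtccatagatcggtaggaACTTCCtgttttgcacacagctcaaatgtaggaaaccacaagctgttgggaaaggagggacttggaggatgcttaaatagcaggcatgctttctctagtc
Cd68, chr11:69666171-69666420, minus strand: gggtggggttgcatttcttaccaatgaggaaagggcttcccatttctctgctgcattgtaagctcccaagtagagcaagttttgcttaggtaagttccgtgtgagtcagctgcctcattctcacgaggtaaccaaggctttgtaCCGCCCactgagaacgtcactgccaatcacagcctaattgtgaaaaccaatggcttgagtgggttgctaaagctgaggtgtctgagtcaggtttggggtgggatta
Mrc1, chr2:14229164-14229413, plus strand: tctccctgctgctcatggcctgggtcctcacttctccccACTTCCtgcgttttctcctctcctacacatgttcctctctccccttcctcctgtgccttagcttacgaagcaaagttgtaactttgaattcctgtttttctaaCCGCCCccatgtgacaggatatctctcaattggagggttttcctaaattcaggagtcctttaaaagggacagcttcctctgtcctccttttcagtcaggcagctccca
GGAAGT was present in the windows of 4 of the 6 matched genes. It started at -61 in Fcgr1, -53 in C1qb, -100 in Lyz2 and -211 in Mrc1, counted from the RefSeq start of transcription. It occurs in 19.7% of 32851 RefSeq promoter windows of this length. GGGCGG was present in 2 of the 6, Cd68 and Mrc1, starting at -106 and -108, against 32.7% of all windows. TATAAA was in 0 of the 6, against 12.4% of all windows. GAGGAAGT, a longer form searched first, was in 0 of the 6 and in 2.44% of all windows, and the shorter GGAAGT that it contains was chosen after the sequences were seen. A match is a string of letters and not a site shown to be bound.

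Per length of annotated exon, Lyz2 was the most abundant of the 10 genes in each library and Fcgr1 the least. On a scale of counts per kilobase set to the same total in each library, Lyz2 was at 185 in Sp6 cKO, 181 in Sp8 cKO, 161 in Sp6+Sp8 cKO and 119 in wildtype. Cd68 was next, at 60.2 in Sp6 cKO, 64.1 in Sp8 cKO, 54.5 in Sp6+Sp8 cKO and 39.9 in wildtype. Fcgr1 was at 2.39 in Sp6 cKO, 1.54 in Sp8 cKO, 0.240 in Sp6+Sp8 cKO and 0.558 in wildtype. Lyz2 made up between 43.2% and 46.1% of the length-scaled sum of the 10 genes. The share of Lyz2 was thus alike in the 4 libraries. That of Fcgr1 was 0.594% in Sp6 cKO, 0.370% in Sp8 cKO, 0.0669% in Sp6+Sp8 cKO and 0.203% in wildtype.

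**Figure D1:**
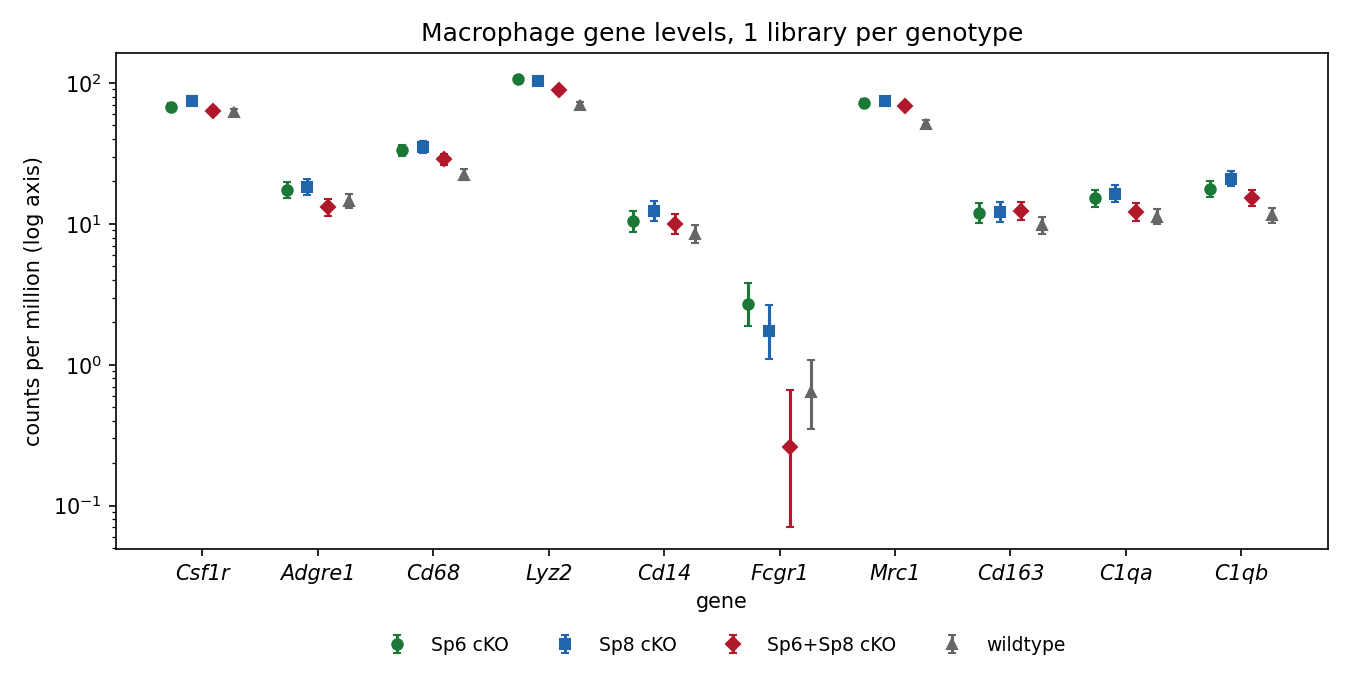
Level of each macrophage gene (CPM, log axis) in the Sp6 cKO, Sp8 cKO, Sp6+Sp8 cKO and wildtype libraries, 1 library each; bars are exact 95% Poisson intervals of the count and cover counting error only. Fcgr1 spans from 0.260 CPM in Sp6+Sp8 cKO to 2.71 CPM in Sp6 cKO, while each other gene varies by at most 1.82-fold over the 4 libraries.

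A gene was called past the size rule when its log2 ratio was at least 1 in either direction, its CPM reached 1 in either library, and the exact 95% interval of its ratio excluded 1. The intervals cover counting error only, and the log2 ratios carry a prior count of 2, which draws those of low genes towards 0. In bulk tissue, fewer macrophages and less RNA per macrophage cannot be told apart.

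For the identity genes of the lineage, no ratio to wildtype came near the size rule. Csf1r (ENSMUSG00000024621, chromosome 18, 61100598 to 61132149) encodes the receptor for the growth factors CSF1 and IL-34. It stood at 67.6 CPM in Sp6 cKO, 74.5 in Sp8 cKO, 63.1 in Sp6+Sp8 cKO and 62.1 in wildtype. It varied least of the 10 genes over the 4 libraries, with ratios to wildtype of 1.09 (95% interval 0.998 to 1.19) in Sp6 cKO tips, 1.20 (1.10 to 1.30) in Sp8 cKO tips and 1.02 (0.934 to 1.10) in Sp6+Sp8 cKO tips. Adgre1 (chromosome 17, 57358691 to 57483527) encodes F4/80, the classic surface marker of mouse macrophages. It stood at 17.5 CPM in Sp6 cKO, 18.3 in Sp8 cKO, 13.1 in Sp6+Sp8 cKO and 14.6 in wildtype. Its ratios to wildtype were 1.20 (1.01 to 1.43) in Sp6 cKO tips, 1.25 (1.05 to 1.49) in Sp8 cKO tips and 0.898 (0.749 to 1.07) in Sp6+Sp8 cKO tips, so the Sp6+Sp8 cKO library alone was below wildtype, within counting error.

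Cd68 and Lyz2, whose products lie in lysosomes or granules, had higher values in the cKO libraries than in wildtype, without reaching the size rule. Cd68 (chromosome 11, 69664213 to 69666153), a glycoprotein of late endosomes and lysosomes, stood at 33.3 CPM in Sp6 cKO, 35.2 in Sp8 cKO, 28.7 in Sp6+Sp8 cKO and 22.4 in wildtype. Its ratios to wildtype were 1.49 (95% interval 1.30 to 1.70) in Sp6 cKO tips, 1.58 (1.38 to 1.80) in Sp8 cKO tips and 1.28 (1.12 to 1.46) in Sp6+Sp8 cKO tips. Lyz2 (chromosome 10, 117277331 to 117282321), the lysozyme of macrophages and neutrophils, stood at 107 CPM in Sp6 cKO, 104 in Sp8 cKO, 88.8 in Sp6+Sp8 cKO and 69.6 in wildtype. Its ratios were 1.54 (1.43 to 1.66) in Sp6 cKO tips, 1.497 (1.39 to 1.61) in Sp8 cKO tips and 1.28 (1.19 to 1.37) in Sp6+Sp8 cKO tips. Both genes were lowest in wildtype, next in Sp6+Sp8 cKO, and higher in the single cKO libraries, whose values did not differ beyond counting error. Lyz2 shares 32.8% of its 31-base stretches with its neighbour and near copy Lyz1, so the division of reads between them is uncertain. Lyz1 held 50 counts in Sp6 cKO, 57 in Sp8 cKO, 39 in Sp6+Sp8 cKO and 53 in wildtype, and the ratios of the summed pair to wildtype were 1.54 in Sp6 cKO tips, 1.51 in Sp8 cKO tips and 1.27 in Sp6+Sp8 cKO tips. Among the other 9 genes, Csf1r and Cd163 share 0.380% and 0.565% of their stretches with other genes, and the rest share 0.

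The sensing receptors differed from each other. Cd14 (chromosome 18, 36725067 to 36726798), a co-receptor that hands bacterial lipopolysaccharide to TLR4, stood at 10.5 CPM in Sp6 cKO, 12.4 in Sp8 cKO, 10.0 in Sp6+Sp8 cKO and 8.51 in wildtype. Only its ratio in Sp8 cKO, 1.46 (95% interval 1.17 to 1.81), had an interval above 1, against 1.23 (0.978 to 1.54) in Sp6 cKO and 1.18 (0.944 to 1.46) in Sp6+Sp8 cKO. Fcgr1 (ENSMUSG00000015947, chromosome 3, 96282909 to 96293969) encodes CD64, the high-affinity receptor for IgG. It had 35 counts in Sp6 cKO, 22 in Sp8 cKO, 4 in Sp6+Sp8 cKO and 14 in wildtype, or 2.71 CPM in Sp6 cKO, 1.75 in Sp8 cKO, 0.260 in Sp6+Sp8 cKO and 0.644 in wildtype. It was the 1 gene of the 10 to pass the size rule against wildtype, as 4.21-fold higher in Sp6 cKO (2.21 to 8.48, log2 ratio 1.88) and 2.71-fold higher in Sp8 cKO (1.33 to 5.73, log2 ratio 1.28). In Sp6+Sp8 cKO its ratio was 0.404 (0.0968 to 1.29), and with a CPM under 1 in both libraries it was not compared. Fcgr1 entered the other comparisons only through the single cKO libraries, where it was high.

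Mrc1 and Cd163 are both scavenger receptors, and their values in the cKO libraries were above wildtype, for Cd163 within counting error in Sp6 cKO. Mrc1 (chromosome 2, 14229392 to 14332057), the mannose receptor CD206 of resident and alternatively activated macrophages, stood at 71.8 CPM in Sp6 cKO, 75.0 in Sp8 cKO, 69.2 in Sp6+Sp8 cKO and 51.4 in wildtype. Its ratios to wildtype were 1.40 (95% interval 1.28 to 1.53) in Sp6 cKO tips, 1.46 (1.34 to 1.59) in Sp8 cKO tips and 1.35 (1.24 to 1.47) in Sp6+Sp8 cKO tips, and the cKO libraries did not differ from each other beyond counting error. Cd163 (chromosome 6, 124304656 to 124330527), which takes up haemoglobin bound to haptoglobin, stood at 11.9 CPM in Sp6 cKO, 12.2 in Sp8 cKO, 12.3 in Sp6+Sp8 cKO and 9.80 in wildtype. Its ratios were 1.22 (0.984 to 1.51) in Sp6 cKO tips, 1.25 (1.01 to 1.54) in Sp8 cKO tips and 1.26 (1.03 to 1.54) in Sp6+Sp8 cKO tips. It was the flattest of the 10 genes among the cKO libraries, which lay within 1.03-fold of each other.

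The complement genes C1qa (chromosome 4, 136895917 to 136898803) and C1qb (chromosome 4, 136880129 to 136886187) encode the A and B chains of C1q, the recognition molecule that starts the classical pathway. C1qa stood at 15.2 CPM in Sp6 cKO, 16.4 in Sp8 cKO, 12.1 in Sp6+Sp8 cKO and 11.3 in wildtype. Its ratios to wildtype were 1.35 (95% interval 1.11 to 1.63) in Sp6 cKO tips, 1.45 (1.20 to 1.75) in Sp8 cKO tips and 1.07 (0.882 to 1.30) in Sp6+Sp8 cKO tips, so it was within counting error of wildtype in Sp6+Sp8 cKO alone. C1qb stood at 17.8 CPM in Sp6 cKO, 20.9 in Sp8 cKO, 15.3 in Sp6+Sp8 cKO and 11.5 in wildtype. Its ratios were 1.54 (1.29 to 1.85) in Sp6 cKO tips, 1.82 (1.52 to 2.17) in Sp8 cKO tips and 1.33 (1.11 to 1.60) in Sp6+Sp8 cKO tips. The C1qb ratio in Sp8 cKO, a log2 ratio of 0.85, was the highest against wildtype among the 9 genes other than Fcgr1. C1qc, the neighbouring gene of the C chain and no member of the set, stood at 37.2 CPM in Sp6 cKO, 40.3 in Sp8 cKO, 27.3 in Sp6+Sp8 cKO and 21.0 in wildtype. Summed over the 3 chains, the ratios to wildtype were 1.60 (1.46 to 1.76) in Sp6 cKO tips, 1.77 (1.62 to 1.94) in Sp8 cKO tips and 1.25 (1.14 to 1.37) in Sp6+Sp8 cKO tips. Per length of exon, the A chain made up 29.1% of the 3 chains in Sp6 cKO, 28.2% in Sp8 cKO, 29.2% in Sp6+Sp8 cKO and 33.6% in wildtype. The C chain made up 38.4% in Sp6 cKO, 37.4% in Sp8 cKO, 35.5% in Sp6+Sp8 cKO and 33.7% in wildtype, so the chains were nearest to equal in wildtype.

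**Figure D2:**
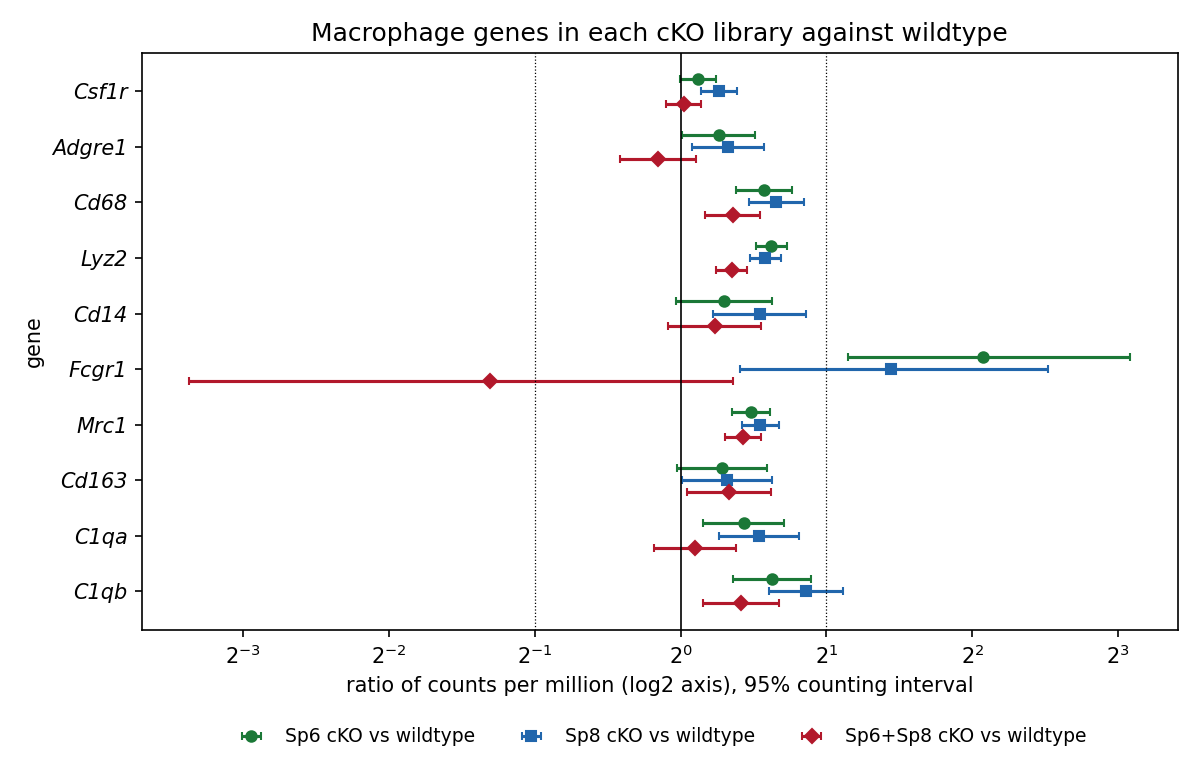
Ratio of the CPM of each cKO library to that of wildtype (log2 axis) for each macrophage gene, with exact 95% intervals that cover counting error only; dotted lines mark log2 ratios of -1 and 1. Apart from Fcgr1 the points lie between 0.898 and 1.82, and the 3 ratios of a gene share 1 wildtype value.

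Counted over the set, in Sp6 cKO 1 of 10 genes was higher than wildtype past the size rule and 0 were lower, where 4.40% of 16884 genes passed (2.24% higher, 2.16% lower). Intervals lay above 1 for 7 of 10 and below 1 for 0, against 15.9% and 15.9% of all genes. Among genes with a CPM of at least 5, which leaves out Fcgr1, they were 6 of 9 and 0, against 17.7% and 18.1%. The median log2 ratio of the set was 0.45, beside -0.01 over all genes compared. In Sp8 cKO 1 of 10 was higher and 0 were lower, against 3.82% of all genes (2.27% higher, 1.55% lower). Intervals lay above 1 for 10 of 10 and below 1 for 0, against 14.8% and 14.9% of all genes, with 9 of 9 and 0 at a CPM of at least 5, against 16.0% and 17.6%, and the median was 0.54 beside -0.01. In Sp6+Sp8 cKO 0 of 9 genes passed, against 5.79% of all genes (2.84% higher, 2.95% lower). Intervals lay above 1 for 5 of 9 and below 1 for 0, against 21.8% and 24.2% of all genes, or 24.5% and 27.9% of those with a CPM of at least 5. There the median was 0.33 beside -0.02. The share of genes past the size rule was small, while the share with an interval above 1 exceeded the background in each comparison with wildtype. The comparisons share the wildtype library and its batch, so their values are not independent of each other. Summed over the genes other than Lyz2, the level was 248 CPM in Sp6 cKO, 267 in Sp8 cKO, 224 in Sp6+Sp8 cKO and 192 in wildtype.

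Within batch 1, ratios of the macrophage genes in the Sp6+Sp8 cKO library to the single cKO libraries were mostly below 1. Against Sp6 cKO, 1 of 10 genes was lower past the size rule and 0 were higher, where 3.97% of all genes passed (1.89% higher, 2.08% lower). That gene was Fcgr1, which fell to 0.260 CPM in Sp6+Sp8 cKO against 2.71 CPM in Sp6 cKO, 10.4-fold lower (95% interval 3.73 to 40.4). Intervals lay below 1 for 5 of 10 and above 1 for 0, against 19.2% and 17.0% of all genes, with 4 of 9 and 0 at a CPM of at least 5, against 22.6% and 19.8%, and the median log2 ratio was -0.21 beside -0.01 over all genes. With library totals as the scaling 3 of 10 lay below 1, namely Adgre1, Lyz2 and Fcgr1, the last on 4 counts, against 15.6% of all genes below and 21.0% above 1. The count below 1 against Sp6 cKO thus depends on the scaling. Adgre1 and C1qa had ratios of 0.749 (0.617 to 0.910) and 0.795 (0.647 to 0.977), and Lyz2 had 0.829 (0.769 to 0.894). Csf1r, Cd14, Mrc1, Cd163 and C1qb were within counting error.

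Against Sp8 cKO, Fcgr1 was again the 1 gene of 10 lower past the size rule, where 4.68% of all genes passed (1.88% higher, 2.80% lower). It fell to 0.260 CPM in Sp6+Sp8 cKO against 1.75 CPM in Sp8 cKO, 6.72-fold lower (95% interval 2.28 to 26.8). Intervals lay below 1 for 7 of 10 and above 1 for 0, against 20.8% and 18.1% of all genes, with 6 of 9 and 0 at a CPM of at least 5, against 23.9% and 21.4%, and the median was -0.30 beside -0.02. The lowest ratios after Fcgr1 were those of Adgre1 at 0.716 (0.590 to 0.868), C1qb at 0.735 (0.614 to 0.879) and C1qa at 0.739 (0.603 to 0.906). Both comparisons share the Sp6+Sp8 cKO library, in which Fcgr1 rests on 4 counts. The summed level of the genes other than Lyz2 was 0.903 times that of Sp6 cKO (0.860 to 0.947) and 0.840 times that of Sp8 cKO (0.801 to 0.881).

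The single cKO libraries were close to each other. Between Sp6 cKO and Sp8 cKO 0 of 10 genes passed the size rule, where 3.10% of all genes did (1.35% higher, 1.75% lower), and the median log2 ratio was -0.07 beside 0.00. Csf1r, at a ratio of 0.907 (95% interval 0.826 to 0.996), was the 1 gene whose interval excluded 1, on the lower side, against 10.5% of all genes, or 11.6% with a CPM of at least 5. Intervals lay above 1 for 0 genes, against 10.8% and 12.6%. Fcgr1 had a ratio of 1.55 (0.886 to 2.78).

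**Figure D3:**
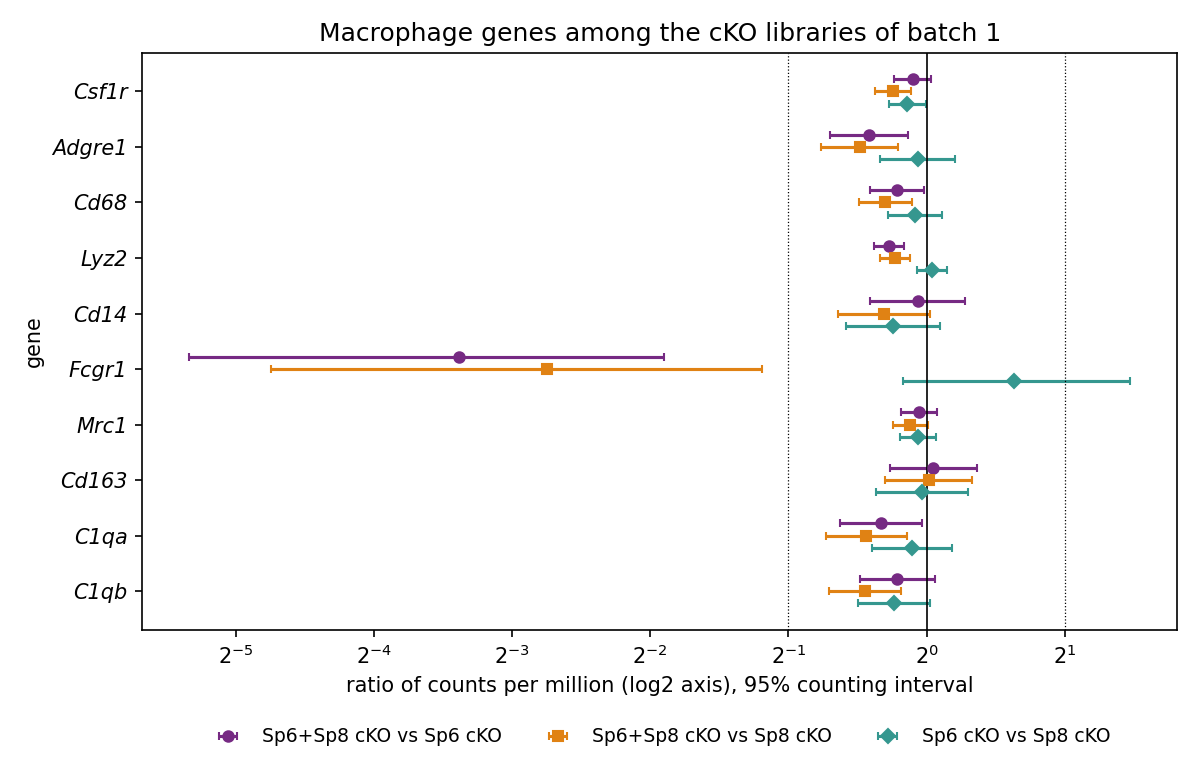
Ratio of CPM between pairs of cKO libraries of batch 1 (log2 axis) for each macrophage gene, with exact 95% intervals that cover counting error only; dotted lines mark log2 ratios of -1 and 1. Fcgr1 lies at 0.0958 and 0.149 in Sp6+Sp8 cKO against Sp6 cKO and Sp8 cKO, and at 1.55 in Sp6 cKO against Sp8 cKO, and the other points lie between 0.716 and 1.03.

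By level, wildtype was the lowest library for 8 of the 10 genes and Sp6+Sp8 cKO for Adgre1 and Fcgr1. The order from Sp8 cKO through Sp6 cKO and Sp6+Sp8 cKO down to wildtype held for 6 genes, namely Csf1r, Cd68, Cd14, Mrc1, C1qa and C1qb. Neighbours in that order mostly overlapped in counting error, with the Sp6 cKO and Sp8 cKO values of Cd68, Cd14, Mrc1, C1qa and C1qb not apart. The pair of genes with the most alike profiles, by Euclidean distance between centred log2 CPM over the 4 libraries, was Cd68 and Lyz2 (0.0883), and of the 45 pairs the farthest was Fcgr1 and Cd163 (2.20). Among 9497 other protein-coding genes with a mean CPM of at least 10, those closest to the mean profile of the 10 were Abcg1 (0.0420), a cholesterol exporter, Ivl (0.0676), a protein of the cornified envelope, Acan (0.0687), the cartilage proteoglycan, Steap3 (0.103) and Col14a1 (0.110). With 4 libraries 52 such genes lay within a distance of 0.2. The mean profile includes Fcgr1, which rests on 4 counts in Sp6+Sp8 cKO and was unlike the other members. Its nearest member, Adgre1, was at a distance of 1.87, while pairs without Fcgr1 lay at 0.451 or less. Genes closest to a mean without Fcgr1 were not sought, so the likeness of the genes named here to the other members was not tested.

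The partners of the 10 genes were followed through lists of their pathways. Over all genes, 2.24% were higher and 2.16% lower past the size rule in Sp6 cKO against wildtype. These shares were 2.27% and 1.55% in Sp8 cKO, and 2.84% and 2.95% in Sp6+Sp8 cKO. List counts in this and the following paragraphs stand beside these shares, and small counts are not read as results. Of 12 measured genes of the CSF1 axis, 0 passed the size rule in any comparison with wildtype, and the median log2 ratios were 0.13 in Sp6 cKO tips, 0.07 in Sp8 cKO tips and 0.11 in Sp6+Sp8 cKO tips. Its ligand gene Csf1 stood at 43.7 CPM in Sp6 cKO, 49.9 in Sp8 cKO, 44.3 in Sp6+Sp8 cKO and 41.2 in wildtype. The other ligand gene, Il34, stood at 13.8 CPM in Sp6 cKO, 16.7 in Sp8 cKO, 12.2 in Sp6+Sp8 cKO and 16.2 in wildtype. Neither ligand was near the size rule. Spi1, which encodes PU.1, stood at 16.4 CPM in Sp6 cKO, 17.0 in Sp8 cKO, 21.3 in Sp6+Sp8 cKO and 14.3 in wildtype. Of 18 genes around CD14 and the Toll-like receptors, 0 passed the rule against wildtype, with medians of 0.23 in Sp6 cKO tips, 0.10 in Sp8 cKO tips and 0.09 in Sp6+Sp8 cKO tips. Tlr4 had log2 ratios of -0.15 in Sp6 cKO tips, -0.23 in Sp8 cKO tips and 0.21 in Sp6+Sp8 cKO tips. Those of Ly96, which encodes the lipopolysaccharide-binding partner of TLR4, were 0.71 in Sp6 cKO tips, 0.75 in Sp8 cKO tips and 0.91 in Sp6+Sp8 cKO tips. Ly96 had 40 counts in Sp6 cKO, 40 in Sp8 cKO, 55 in Sp6+Sp8 cKO and 40 in the deeper wildtype library.

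Some genes of Fc receptors and their signalling, other than Fcgr1, had higher values in cKO libraries. The 5 compared were Fcgr2b, Fcgr3, Fcgrt, Fcer1g and the kinase gene Syk. Of these, 2 were higher past the size rule in Sp6 cKO tips, 2 in Sp8 cKO tips and 1 in Sp6+Sp8 cKO tips, and 0 were lower. Medians of the 5 were 0.68 in Sp6 cKO tips, 0.54 in Sp8 cKO tips and 0.69 in Sp6+Sp8 cKO tips. Fcgrt was lowest, at 0.13 in Sp6 cKO tips, -0.004 in Sp8 cKO tips and -0.25 in Sp6+Sp8 cKO tips, the last with an interval below 1. Fcgr2b, the inhibitory receptor, stood at 36.4 CPM in Sp6 cKO, 33.3 in Sp8 cKO, 34.8 in Sp6+Sp8 cKO and 13.6 in wildtype. Its log2 ratios to wildtype were 1.41 in Sp6 cKO tips, 1.28 in Sp8 cKO tips and 1.35 in Sp6+Sp8 cKO tips. Fcgr3, an activating receptor, stood at 22.3 CPM in Sp6 cKO, 19.4 in Sp8 cKO, 15.1 in Sp6+Sp8 cKO and 8.05 in wildtype. Its log2 ratios passed the rule in both single cKO libraries, at 1.45 in Sp6 cKO tips, 1.26 in Sp8 cKO tips and 0.90 in Sp6+Sp8 cKO tips. Fcer1g, the signalling chain that Fcgr1 and Fcgr3 share, had 0.68 in Sp6 cKO tips, 0.54 in Sp8 cKO tips and 0.69 in Sp6+Sp8 cKO tips. Within batch 1 the log2 ratio of Fcgr2b in Sp6+Sp8 cKO was -0.06 against Sp6 cKO and 0.07 against Sp8 cKO. That of Fcgr3 was -0.56 against Sp6 cKO and -0.36 against Sp8 cKO, with intervals below 1. Fcgr4 had 7 counts in Sp6 cKO, 6 in Sp8 cKO, 0 in Sp6+Sp8 cKO and 3 in wildtype.

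Of 16 complement genes, 1 was higher in Sp6 cKO tips, 0 in Sp8 cKO tips and 1 in Sp6+Sp8 cKO tips, and 0 were lower, with medians of 0.35 in Sp6 cKO tips, 0.34 in Sp8 cKO tips and 0.15 in Sp6+Sp8 cKO tips. The gene that passed was C3, the central component, at 183 CPM in Sp6 cKO, 120 in Sp8 cKO, 173 in Sp6+Sp8 cKO and 61.7 in wildtype. Of 18 lysosomal genes 0 passed the rule, with medians of 0.17 in Sp6 cKO tips, 0.18 in Sp8 cKO tips and -0.04 in Sp6+Sp8 cKO tips. In Sp6+Sp8 cKO 11 of the 18 lay below 0, beside a median of -0.02 over all genes, while Cd68 and Lyz2 were at 0.36 and 0.35. Of 14 scavenger and haem handling genes, Cd163 among them, the medians were 0.16 in Sp6 cKO tips, 0.12 in Sp8 cKO tips and -0.05 in Sp6+Sp8 cKO tips. In Sp6+Sp8 cKO 8 of the 14 lay below 0, beside a median of -0.02 over all genes, while Mrc1 was at 0.43. Stab1, another scavenger receptor gene, stood at 95.3 CPM in Sp6 cKO, 101 in Sp8 cKO, 77.1 in Sp6+Sp8 cKO and 89.4 in wildtype. Hmox1 alone passed, which encodes haem oxygenase and was at 50.0 CPM in Sp6+Sp8 cKO against 104 CPM in wildtype. Its log2 ratios were -0.36 in Sp6 cKO tips, -0.21 in Sp8 cKO tips and -1.06 in Sp6+Sp8 cKO tips. Those of Cd163 were 0.28 in Sp6 cKO tips, 0.32 in Sp8 cKO tips and 0.33 in Sp6+Sp8 cKO tips.

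**Figure D4:**
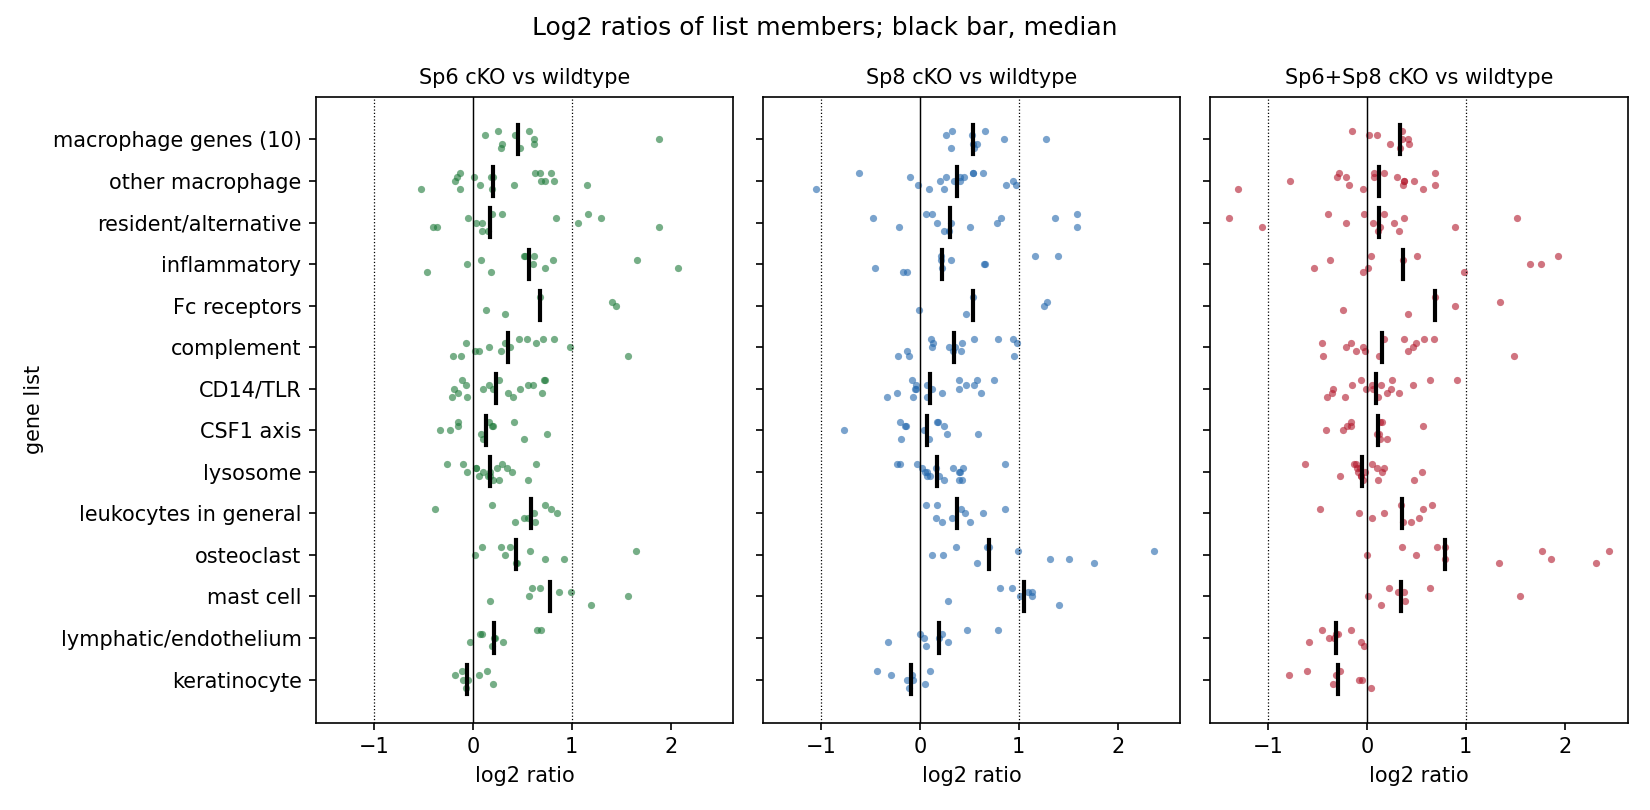
Log2 ratio to wildtype of each compared member of the 10 macrophage genes and of related gene lists, by cKO library; each point is a gene, black bars are medians and dotted lines mark -1 and 1. The medians of the 10 macrophage genes are 0.45 in Sp6 cKO tips, 0.54 in Sp8 cKO tips and 0.33 in Sp6+Sp8 cKO tips, and those of keratinocyte markers are -0.06 in Sp6 cKO tips, -0.09 in Sp8 cKO tips and -0.29 in Sp6+Sp8 cKO tips.

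Other macrophage genes did not move as a block. Of 18 compared, 1 was higher past the size rule in Sp6 cKO, 1 lower in Sp8 cKO and 1 lower in Sp6+Sp8 cKO, with medians of 0.20 in Sp6 cKO tips, 0.37 in Sp8 cKO tips and 0.12 in Sp6+Sp8 cKO tips. Ccr2, the receptor that brings monocytes in from blood, stood at 28.5 CPM in Sp6 cKO, 23.3 in Sp8 cKO, 16.4 in Sp6+Sp8 cKO and 12.7 in wildtype, and only the Sp6 cKO value passed. Cx3cr1, the fractalkine receptor, stood at 5.43 CPM in Sp6 cKO, 3.73 in Sp8 cKO, 3.12 in Sp6+Sp8 cKO and 7.86 in wildtype, and passed as lower in both Sp8 cKO tips and Sp6+Sp8 cKO tips. In Sp6+Sp8 cKO both were lower than in Sp6 cKO, with Ccr2 above and Cx3cr1 below wildtype. Tyrobp, an adaptor of several myeloid receptors, had log2 ratios of 0.18 in Sp6 cKO tips, 0.45 in Sp8 cKO tips and -0.30 in Sp6+Sp8 cKO tips. Clec4f, a Kupffer cell marker, had 0 counts in each library, and Marco had 3 counts in wildtype and 0 elsewhere.

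Genes of resident and alternatively activated macrophages included 4 of 14 higher in Sp6 cKO tips, 3 in Sp8 cKO tips and 1 in Sp6+Sp8 cKO tips, and 2 lower in Sp6+Sp8 cKO. The lectin genes Cd209f and Clec10a passed in both single cKO libraries, with log2 ratios of 1.88 in Sp6 cKO tips, 1.59 in Sp8 cKO tips and 0.89 in Sp6+Sp8 cKO tips for Cd209f and 1.17 in Sp6 cKO tips, 1.59 in Sp8 cKO tips and 0.17 in Sp6+Sp8 cKO tips for Clec10a. Folr2, a folate receptor of resident macrophages, was at 1.30 in Sp6 cKO tips, 0.82 in Sp8 cKO tips and 0.38 in Sp6+Sp8 cKO tips. Retnla was at 1.37 in Sp8 cKO, from 19 counts against 11 in wildtype, and at 1.52 in Sp6+Sp8 cKO, from 26 counts. Ccl24 was at -1.39 in Sp6+Sp8 cKO, from 12 counts against 49 in wildtype. Cd209f and Retnla were under the CPM minimum of 1 in wildtype, at 0.920 and 0.506 CPM. Both thus entered only through the cKO libraries, where they were higher, and the counts above include them. Ccl24, at 0.780 CPM in Sp6+Sp8 cKO, entered that comparison only through wildtype, where it was higher. Within batch 1 Clec10a was lower in Sp6+Sp8 cKO than in Sp8 cKO, at -1.42.

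Inflammatory genes were higher past the size rule for 2 of 12 compared in Sp6 cKO tips, 2 of 11 in Sp8 cKO tips and 3 of 11 in Sp6+Sp8 cKO tips, and 0 were lower. Il1b encodes a cytokine made by activated macrophages and neutrophils. It had 26 counts in Sp6 cKO, 21 in Sp8 cKO, 38 in Sp6+Sp8 cKO and 12 in wildtype. Its log2 ratios were 1.66 in Sp6 cKO tips, 1.40 in Sp8 cKO tips and 1.93 in Sp6+Sp8 cKO tips. At 0.552 CPM in wildtype, Il1b entered only through the cKO libraries, where it was higher. Among monocyte-recruiting chemokines Ccl8 had the highest log2 ratios to wildtype, at 2.05 in Sp6 cKO tips, 2.22 in Sp8 cKO tips and 2.43 in Sp6+Sp8 cKO tips. It stood at 10.9 CPM in Sp6 cKO, 12.2 in Sp8 cKO, 14.2 in Sp6+Sp8 cKO and 2.53 in wildtype. Unlike most of the 10 macrophage genes, Il1b and Ccl8 had their highest values in Sp6+Sp8 cKO, which for Il1b was within counting error of both single cKO libraries and for Ccl8 of Sp8 cKO. Ptgs2 was also highest in Sp6+Sp8 cKO, while Chil1 was highest in Sp6 cKO and Ccl9 in Sp8 cKO.

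Several of the 10 genes are also made by other cells: Lyz2 and Cd14 by neutrophils, Csf1r and Cd68 by osteoclasts, and Mrc1 by lymphatic endothelium. Markers of leukocytes in general, 10 genes with Ptprc (CD45) among them, summed to 302 CPM in Sp6 cKO, 272 in Sp8 cKO, 264 in Sp6+Sp8 cKO and 203 in wildtype. Their ratios to wildtype were 1.49 in Sp6 cKO tips, 1.34 in Sp8 cKO tips and 1.30 in Sp6+Sp8 cKO tips. For the macrophage genes other than Lyz2 they were 1.29 in Sp6 cKO tips, 1.39 in Sp8 cKO tips and 1.17 in Sp6+Sp8 cKO tips. Both sums were thus above wildtype in each cKO library. Osteoclast markers, 12 genes with none at 0 in all libraries, summed to 473 CPM in Sp6 cKO, 596 in Sp8 cKO, 619 in Sp6+Sp8 cKO and 332 in wildtype. Of 11 compared, 1 was higher past the rule in Sp6 cKO tips, 4 in Sp8 cKO tips and 5 in Sp6+Sp8 cKO tips. Oscar, which passed in Sp8 cKO and Sp6+Sp8 cKO, was at 0.874 CPM in wildtype, so it was compared only through the cKO libraries, where it was higher. Their sum was 1.31 times as high in Sp6+Sp8 cKO as in Sp6 cKO (95% interval 1.27 to 1.35), where Csf1r and Cd68 had ratios of 0.933 and 0.862. Neutrophil markers, also 12 with none at 0 in all libraries, summed to 118 CPM in Sp6 cKO, 90.7 in Sp8 cKO, 131 in Sp6+Sp8 cKO and 65.9 in wildtype. S100a8 alone gave 50.2 CPM in Sp6 cKO, 30.6 in Sp8 cKO, 69.2 in Sp6+Sp8 cKO and 8.83 in wildtype. Without S100a8 and S100a9 the sum was 58.4 CPM in Sp6 cKO, 53.0 in Sp8 cKO, 46.3 in Sp6+Sp8 cKO and 55.6 in wildtype, so these 2 genes carried the higher sum in the cKO libraries. Csf3r, also of the list, stood at 9.46 CPM in Sp6 cKO, 7.14 in Sp8 cKO, 9.16 in Sp6+Sp8 cKO and 4.28 in wildtype. Of 11 neutrophil markers compared, 3 were higher past the rule in Sp6 cKO tips, 2 in Sp8 cKO tips and 3 in Sp6+Sp8 cKO tips. Lower past the rule were 0 in Sp6 cKO tips, 1 in Sp8 cKO tips and 2 in Sp6+Sp8 cKO tips. The median log2 ratio over the 11 compared was -0.06 in Sp6 cKO tips, 0.12 in Sp8 cKO tips and -0.29 in Sp6+Sp8 cKO tips, and 7 of 11 lay below 0 in Sp6+Sp8 cKO. The 9 endothelial markers summed to 264 CPM in Sp6 cKO, 267 in Sp8 cKO, 193 in Sp6+Sp8 cKO and 232 in wildtype, and 0 of 9 had a log2 ratio above 0 in Sp6+Sp8 cKO, where Mrc1 had 0.43. The 8 mast cell markers summed to 134 CPM in Sp6 cKO, 151 in Sp8 cKO, 107 in Sp6+Sp8 cKO and 82.1 in wildtype. Of these, 2 were higher past the rule in Sp6 cKO tips, 5 in Sp8 cKO tips and 1 in Sp6+Sp8 cKO tips, and 0 were lower. Their median log2 ratios were 0.78 in Sp6 cKO tips, 1.06 in Sp8 cKO tips and 0.35 in Sp6+Sp8 cKO tips. Cma1, Cpa3, Mcpt4, Tpsab1 and Tpsb2 followed the order from Sp8 cKO through Sp6 cKO and Sp6+Sp8 cKO down to wildtype, and Kit, Hdc and Ms4a2 did not. The T and B cell markers, 8 genes, summed to 20.9 CPM in Sp6 cKO, 8.41 in Sp8 cKO, 19.3 in Sp6+Sp8 cKO and 4.51 in wildtype. Of those compared, 3 of 3 were higher past the rule in Sp6 cKO, 1 of 4 in Sp8 cKO and 3 of 3 in Sp6+Sp8 cKO tips. Trdc, a T cell receptor delta gene, was 9.93-fold as high as wildtype in Sp6 cKO (95% interval 5.99 to 17.4) and 9.03-fold in Sp6+Sp8 cKO (5.47 to 15.8). Cd3e was 6.74-fold as high in Sp6 cKO (4.28 to 11.03). Trdc and Cd3g were under the CPM minimum of 1 in wildtype, at 0.828 and 0.460 CPM. They were thus compared only through the cKO libraries, where they were higher. Where 3 of 3 passed, the rest of the 8 genes were too low to compare, so the CPM minimum shaped these counts. Of 13 dendritic and Langerhans cell markers, 10 were compared in Sp6 cKO tips, 11 in Sp8 cKO tips and 10 in Sp6+Sp8 cKO tips. Among those compared, 0 were higher and 1 was lower past the rule in each comparison with wildtype. Their medians were -0.15 in Sp6 cKO tips, 0.08 in Sp8 cKO tips and 0.08 in Sp6+Sp8 cKO tips. That gene was H2-Eb1, an MHC class II gene, at 11.5 CPM in Sp6 cKO, 10.2 in Sp8 cKO, 1.17 in Sp6+Sp8 cKO and 27.9 in wildtype. No such low value in Sp6+Sp8 cKO was seen for the other class II genes of the list, with H2-Aa at 100.3 CPM in Sp6 cKO, 129 in Sp8 cKO, 83.1 in Sp6+Sp8 cKO and 81.5 in wildtype and H2-Ab1 at 50.4 CPM in Sp6 cKO, 61.0 in Sp8 cKO, 66.9 in Sp6+Sp8 cKO and 57.5 in wildtype. Globin and erythroid genes summed to 339 CPM in Sp6 cKO, 692 in Sp8 cKO, 353 in Sp6+Sp8 cKO and 267 in wildtype, the highest level being in Sp8 cKO, as for 7 of the 10 macrophage genes. The part of these other cells and of blood in the macrophage gene values was not tested.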

How the data were processed

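Per the labels' protocols, poly-A RNA from whole regenerating digit tips was sequenced, from dUTP strand-specific libraries, as paired reads of 150 bp. Among tools, the submitters' processing notes list Salmon, STAR, featureCounts, edgeR, deepTools and Trim Galore 0.6.4 with no roles, and the build GRCm38; no annotation release is stated. The values deposited by the authors are estimated counts per gene, unscaled, of which 84.6% to 87.1% are whole numbers. Of the columns, 1 fits no sample in the labels and was left out. Fractional counts arise where reads are divided between genes, so genes with near copies are uncertain.

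Estimated counts were rounded. All 4 libraries were scaled together by TMM (edgeR 4.0.16, R 4.3.3), and a prior count of 2 entered the log2 ratios. Ratio intervals are exact Clopper-Pearson 95% intervals given the sum of both counts, and level intervals are exact Poisson. Reads amplified without molecular identifiers are not independent molecules, so these intervals may be too narrow. A count of 3, the limit that a count of 0 allows, equals 0.138 to 0.238 CPM. GENCODE M21 (GRCm38) gave positions and exon lengths for 98.8% of gene identifiers. The calculation was checked on simulated counts that carry Poisson error only. Those counts hold no variation between animals or batches, so the check says nothing about such variation. Named genes are the 10 members, a fixed set of partners, and up to 3 genes of each of 19 lists per comparison with wildtype, by absolute log2 ratio among those past the size rule; other genes named from the lists, and the promoter motifs, were chosen after their values were seen. The members and lists were chosen with earlier results of these data known. Alternatives were DESeq2 1.42.0 size factors, library totals with and without the 20 most abundant genes, a prior count of 0.5, a CPM minimum of 5 or none, and a log2 minimum of 0.58.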

Additional observations from a re-analysis of the deposited data

How the results depend on the processing

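No paired analysis was possible because each genotype has 1 library, and for the same reason no library could be left out of a group. The median log2 ratio of the 10 genes kept its sign in each comparison under each alternative tried, ranging against wildtype between 0.43 and 0.46 in Sp6 cKO, 0.53 and 0.55 in Sp8 cKO, and 0.28 and 0.38 in Sp6+Sp8 cKO. No gene of the 10 changed the sign of its log2 ratio in any comparison under any alternative. With Lyz2 in the sum, the Sp6 cKO ratio to wildtype was 1.36 against 1.29 without it. With a CPM minimum of 5, 0 of the 10 genes passed the size rule in any comparison, since Fcgr1 was then not compared. With a log2 minimum of 0.58, 3 were higher in Sp6 cKO (Fcgr1, Lyz2 and C1qb) and 4 in Sp8 cKO (Fcgr1, Lyz2, C1qb and Cd68) than in wildtype. In a check added after seeing the data, intervals below 1 in Sp6+Sp8 cKO against Sp6 cKO fell to 3 genes from 5 with library totals, with or without the 20 most abundant genes. Leaving those genes out, 14.9% of all genes lay below 1 and 21.8% above. Over all genes, higher and lower counts with a CPM minimum of 5 were 118 and 137 in Sp6 cKO, 110 and 82 in Sp8 cKO and 164 and 212 in Sp6+Sp8 cKO against wildtype. They were 85 and 129 in Sp6+Sp8 cKO against Sp6 cKO, 97 and 180 against Sp8 cKO, and 55 and 80 in Sp6 cKO against Sp8 cKO. With the log2 minimum of 0.58 the same counts were 822 and 727, 853 and 533, 1146 and 1202, 790 and 836, 768 and 1099, and 458 and 574. With no CPM minimum 591 were higher in Sp8 cKO than in wildtype. Depth limits Fcgr1 most, which held between 4 and 35 counts.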
